A study of Mus musculus with 6 samples.

Results

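Open chromatin of mouse urothelium was examined at 8 genes of the Notch pathway, comprising the receptors Notch1, Notch2, Notch3 and Notch4, the ligands Jag1, Jag2 and Dll1, and the target Hes1. Every interval of the deposited peak lists that overlapped the mm10 span of one of these 8 genes, widened by 50 kb on each side, was taken. This gave 1460 distinct intervals of 1085290 over 6 libraries, of which 85 lay within 500 bp of an end of the gene, 502 inside it and 873 outside it. The libraries came from Stag2-KO mice (3 libraries) and Stag2-WT mice (3 libraries), all in batch 1 and all taken 1 week after TMX induction, so the controls received TMX as well. TMX was given in the diet, and the cells were sorted as GFP+ and DAPI- from peeled urothelium, the epithelial lining of the bladder, with 50000 cells per condition. The Stag2 product is part of cohesin, which forms chromatin loops and joins sister chromatids. ATAC-seq, the assay used, inserts sequencing adapters into accessible DNA with a transposase. The labels call the libraries biological replicates and say neither how many animals stood behind each nor how the deletion was driven, so a p-value here reflects only how far these 6 libraries scatter, which may be partly technical.

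Notch receptors are single-pass membrane proteins that are cut after a ligand of the Jagged or Delta family on a neighbouring cell binds them. The last cut, by gamma-secretase, frees the intracellular domain, which joins the DNA-binding protein RBPJ in the nucleus and turns on targets such as Hes1, a bHLH repressor. In stratified and transitional epithelia the pathway is known for its part in differentiation, and NOTCH genes are among those altered in human bladder cancer.

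The gene starts differed in how much of them lay in open intervals, and 4 stretches of 250 bases upstream of an annotated start are shown because they span that range. They are RefSeq sequences of GRCm38.p6, whose coordinates are those of mm10, written 5′ to 3′ on the gene's strand. Notch2 is shown as a start that was covered in full in all 6 libraries (chr3:98013288-98013537, plus strand), and Notch3 as one that was covered, over 100 bases, in 1 library alone (chr17:32166891-32167140, minus strand). Dll1 has 2 RefSeq starts, and both are shown because they differed. Capitals mark matches to the N box (CACNAG, a Hes-type site), the AP-1 site (TGANTCA) or the CHR element (TTTGAA), on either strand.
Notch2: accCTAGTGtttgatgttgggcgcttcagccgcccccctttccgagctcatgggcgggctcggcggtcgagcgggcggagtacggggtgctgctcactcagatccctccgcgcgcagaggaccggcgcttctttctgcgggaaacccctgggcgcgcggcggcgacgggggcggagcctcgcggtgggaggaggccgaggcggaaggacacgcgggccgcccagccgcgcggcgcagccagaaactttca
Notch3: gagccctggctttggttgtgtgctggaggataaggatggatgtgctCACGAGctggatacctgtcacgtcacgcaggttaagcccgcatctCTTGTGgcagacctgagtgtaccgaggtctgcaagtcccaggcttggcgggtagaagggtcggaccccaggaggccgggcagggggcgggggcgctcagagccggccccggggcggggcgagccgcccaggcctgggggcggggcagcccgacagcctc
Dll1 inner start: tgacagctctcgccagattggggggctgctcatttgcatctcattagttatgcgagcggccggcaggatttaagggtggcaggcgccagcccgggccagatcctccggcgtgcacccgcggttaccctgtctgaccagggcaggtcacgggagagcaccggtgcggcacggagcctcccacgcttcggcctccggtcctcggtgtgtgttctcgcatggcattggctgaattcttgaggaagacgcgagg
Dll1 outer start: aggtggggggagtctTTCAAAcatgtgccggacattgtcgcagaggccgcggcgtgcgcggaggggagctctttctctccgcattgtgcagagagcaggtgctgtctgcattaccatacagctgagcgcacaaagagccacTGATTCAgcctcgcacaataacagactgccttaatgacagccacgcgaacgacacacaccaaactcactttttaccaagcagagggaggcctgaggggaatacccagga
The inner start of Dll1 (chr17:15375824-15376073, minus strand) was covered over 250, 250 and 227 bases in Stag2-KO libraries 1 to 3 and over 250 bases in each Stag2-WT library. At the outer start (chr17:15376933-15377182, minus strand) the covered bases were 0, 150 and 177 in Stag2-KO and 207, 218 and 208 in Stag2-WT, mostly by weak intervals of rank 115817 to 173159, with 74870 in Stag2-WT replicate 3. The Notch2 stretch had 72.0% G+C and 34 CpG, the Notch3 stretch 68.8% and 17, the inner Dll1 stretch 64.0% and 21 and the outer one 56.0% and 13.

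Promoter entries of RefSeq matched 7 of the 8 members, with 8 starts in all, and Hes1 is named only. The RBPJ core (TGGGAA) was not found in any of the 8 stretches, and 21.6% of 32817 promoters held it in a window of the same length. The N box occurred in Notch1 (1 match), Notch2 (1) and Notch3 (2), against 36.7% of all promoters. The AP-1 site (6.75% of all) and the CHR element (16.0%) had 1 match each, both at the outer Dll1 start. The E box (CANNTG, 66.2% of all promoters, not in capitals here) had 1 match in Jag1, 1 in Notch4, 1 at the inner and 3 at the outer Dll1 start. N boxes can overlap E boxes, and a match in letters is no evidence of binding.

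Peaks were compared by rank. Within each list the distinct intervals were ordered by the fold over local background that the authors' peak caller had assigned, rank 1 being the highest fold, and the best 100000 of each library were kept. Overlapping intervals were merged to regions, and a library without an interval in a region was given the rank just past the end of the list and is called absent below, whether or not its whole list held a weaker interval. The difference between genotypes is a log2 rank gain, where +1 means a rank that is better by a factor of 2 in Stag2-KO. Regions present in 3 or more libraries were tested with limma over the whole genome, with Benjamini-Hochberg adjustment at 0.05. The 8 loci held 172 regions. Of these, 129 were tested (8 at gene ends, 34 internal and 87 distal), 90 had a peak in all 6 libraries, and 43 were not tested because they had a peak in 1 library (26) or in 2 (17). Bulk cells were used, so a region open in fewer cells and a region less open in each cell cannot be told apart.

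Depth, read as the background coverage that fold and p imply, was 5.89 to 7.98, with no difference between genotypes beyond the spread (two-sided p = 0.9 by an exact permutation test of 3 libraries against 3, where the smallest possible p is 0.1). The lists held 181987 to 299636 peaks, and that of Stag2-KO replicate 1 was the longest. For Stag2 itself, the interval at the lower gene end (chromosome X, position 42149297) had ranks of 16287, 20829 and 26329 in Stag2-KO and 29586, 34076 and 28720 in Stag2-WT, with no overlap. Which exons were deleted is not given in the labels, so this interval is no check of the genotypes. Over the member regions, Stag2-KO replicate 3 stood nearest to Stag2-WT replicates 3 and 1 (median difference in log2 rank 0.203 and 0.249), and farther from Stag2-KO replicates 1 and 2 (0.303 and 0.284). Of 12 urothelial markers, 11, 11 and 9 had an interval at a gene end among the best 100000 in Stag2-KO, and 9, 8 and 8 in Stag2-WT. Trp63, a defining basal marker, had none in any whole list. Of 10 endothelial markers, 6, 3 and 2 had one in Stag2-KO and 2, 3 and 1 in Stag2-WT. For 7 mural, 6 fibroblast and 6 leukocyte markers the counts were 3, 5 and 4, then 4, 4 and 1, then 3, 3 and 2 in Stag2-KO, and 6, 4 and 4, then 5, 3 and 3, then 1, 3 and 2 in Stag2-WT, with Ptprc, a defining leukocyte marker, absent from every whole list. Notch4 and the ligands are also used by endothelium and mural cells, and the part of such cells in the values below was not tested.

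None of the 129 member regions passed the test between genotypes (limma, smallest adjusted p = 0.255). In the genome 0.0209% of tested regions were called, 21 of 100565, and with the replicate number as a block 32 were called and again no member region. At an unadjusted p below 0.05, 15 member regions (11.6%) had a better rank in Stag2-KO and 2 (1.55%) a better rank in Stag2-WT. The background was 6.97% and 7.84% over all regions, and 7.17% and 7.14% over the 87825 regions within 50 kb of a protein-coding gene. All Stag2-KO ranks were better than all Stag2-WT ranks in 26 member regions (20.2%, background 11.4% over all regions and 11.9% near genes), and all Stag2-WT ranks were better in 4 (3.10%, background 8.17% and 7.61%). The median gain was 0.14 over the member regions and 0.02 over all tested regions, with positive gains in 83 members (64.3%, against 51.5%). Neighbouring regions share a locus, and these shares describe 8 loci without a test of their own. Of the 129, 3 were tested through Stag2-KO libraries alone and 2 through Stag2-WT libraries alone, so the filter fixed the direction of these 5. Of these 5, 2 are among the 17 with an unadjusted p below 0.05. The 3 are among the 26 with all Stag2-KO ranks better, and the 2 among the 4 with the reverse. Their separation was thus fixed as well, and regions tested through both genotypes made up 23 of the 26 and 2 of the 4. The background shares were taken under the same filter. With a peak required in all 6 libraries the shares were 13.3% and 1.11% of 90 member regions, against 7.27% and 6.75% of all regions.

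The shares moved with single libraries. Without Stag2-KO replicate 1, 5.88% of member regions had an unadjusted p below 0.05 with a better rank in Stag2-KO and 0% with a better rank in Stag2-WT, against 3.34% and 3.38% of all regions. Without Stag2-KO replicate 2 the members gave 4.13% and 0.826%, against 4.13% and 4.51%. Without Stag2-KO replicate 3 they gave 18.9% and 8.20%, against 12.6% and 13.5%. Thus the percentage with better Stag2-KO ranks did not exceed the background without Stag2-KO replicate 2. The median gain in that fit was still 0.139 over the member regions, against −0.001 over all regions. Without Stag2-WT replicate 2 that percentage was again not above the background. The members there gave 7.32% and 6.50% and all regions 8.89% and 10.6%, with median gains of 0.082 and 0.031. Without Stag2-WT replicate 1 the members gave 4.80% and 0.80%, against 3.07% and 6.31%, and without Stag2-WT replicate 3 they gave 4.10% and 0.820%, against 2.85% and 5.23%. With the replicate block they gave 16.3% and 3.88%, against 10.6% and 11.3%. With the share of gene-end intervals as a covariate they gave 3.10% and 0.775%, against 2.74% and 1.96%. The percentage with better Stag2-KO ranks thus lay near the background in a fit that called 0 regions in the genome. The median gain in that fit was still 0.179 over the member regions, against 0.0015 over all regions. Ranking by −log10 p gave 23.8% and 5.30% of 151 member regions, against 8.86% and 9.50%, with median gains of 0.211 and −0.0004. With the best 50000 intervals the members gave 8.47% and 1.69% of 59 regions, against 6.48% and 7.18%. There the median gain was 0.029 over the member regions and 0.026 over all regions, so the medians hardly differed.

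**Figure D1:**
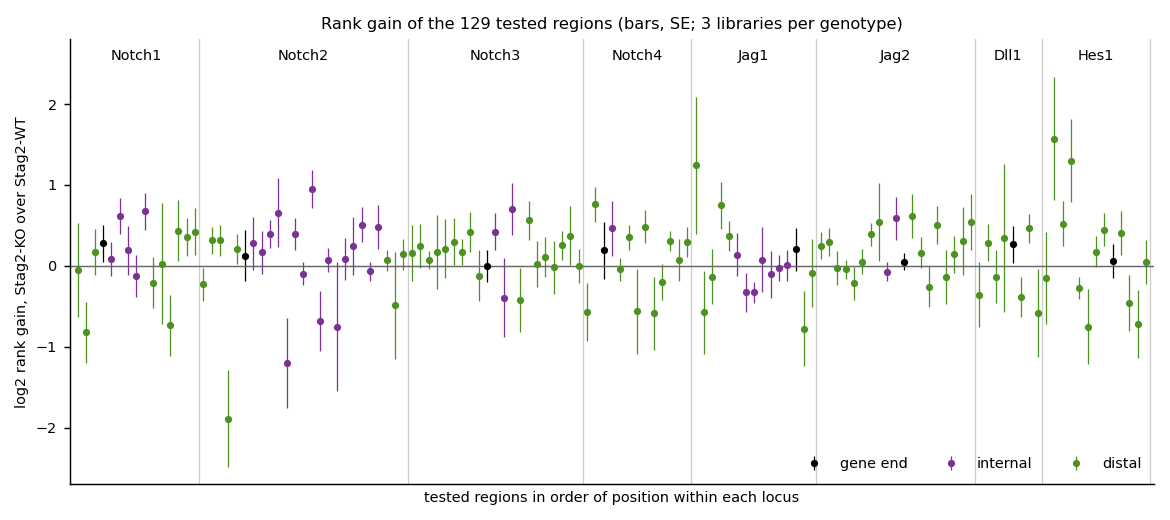
Log2 rank gain of Stag2-KO over Stag2-WT (y axis) for the 129 tested regions, ordered by position within each locus, with the class of region in colour and bars for the SE (3 libraries per genotype). Most gains lie between −1 and 1, 83 of 129 are above 0, and the lowest and highest are -1.89 near Notch2 and 1.57 near Hes1.

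The receptors had 74 tested regions, 51 with a positive and 23 with a negative gain, and a median of 0.17. For the ligands the figures were 42 regions, 24 positive, 18 negative and 0.06, and for Hes1 13 regions, 8 positive, 5 negative and 0.06. By place, the 8 gene-end regions had gains from 0.00 at Notch3 to 0.28 at Notch1 (median 0.16), the internal regions had 22 above and 12 below 0 (median 0.11) and the distal ones 53 above and 34 below (median 0.14). Of the 87 distal regions, 30 lay inside or at another protein-coding gene, and 11 lay within 500 bp of an end of one.

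The strongest regions of the loci lay away from the ends of the 8 genes themselves. Of the 129 tested regions, 8 lay at such ends, 34 were internal and 87 distal. With so few end regions, the counts below are no measure of a preference of place. Rank 5000 was reached in at least 1 library by 10 regions, of which 9 were distal, 1 was internal and none was at an end of a member gene. Of the 9 distal ones, 1 lay at an end of another gene, Sec16a, near Notch1. In all 6 libraries 2 did so, 1 upstream of Notch1 and 1 inside Notch2. Regions at gene ends ranked better by p than by fold, with medians of 37768 by p and 60230 by fold over 48 values, and 89.6% of the values were better by p. For internal regions 79.3% were, and for distal regions 59.3%.

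**Figure D2:**
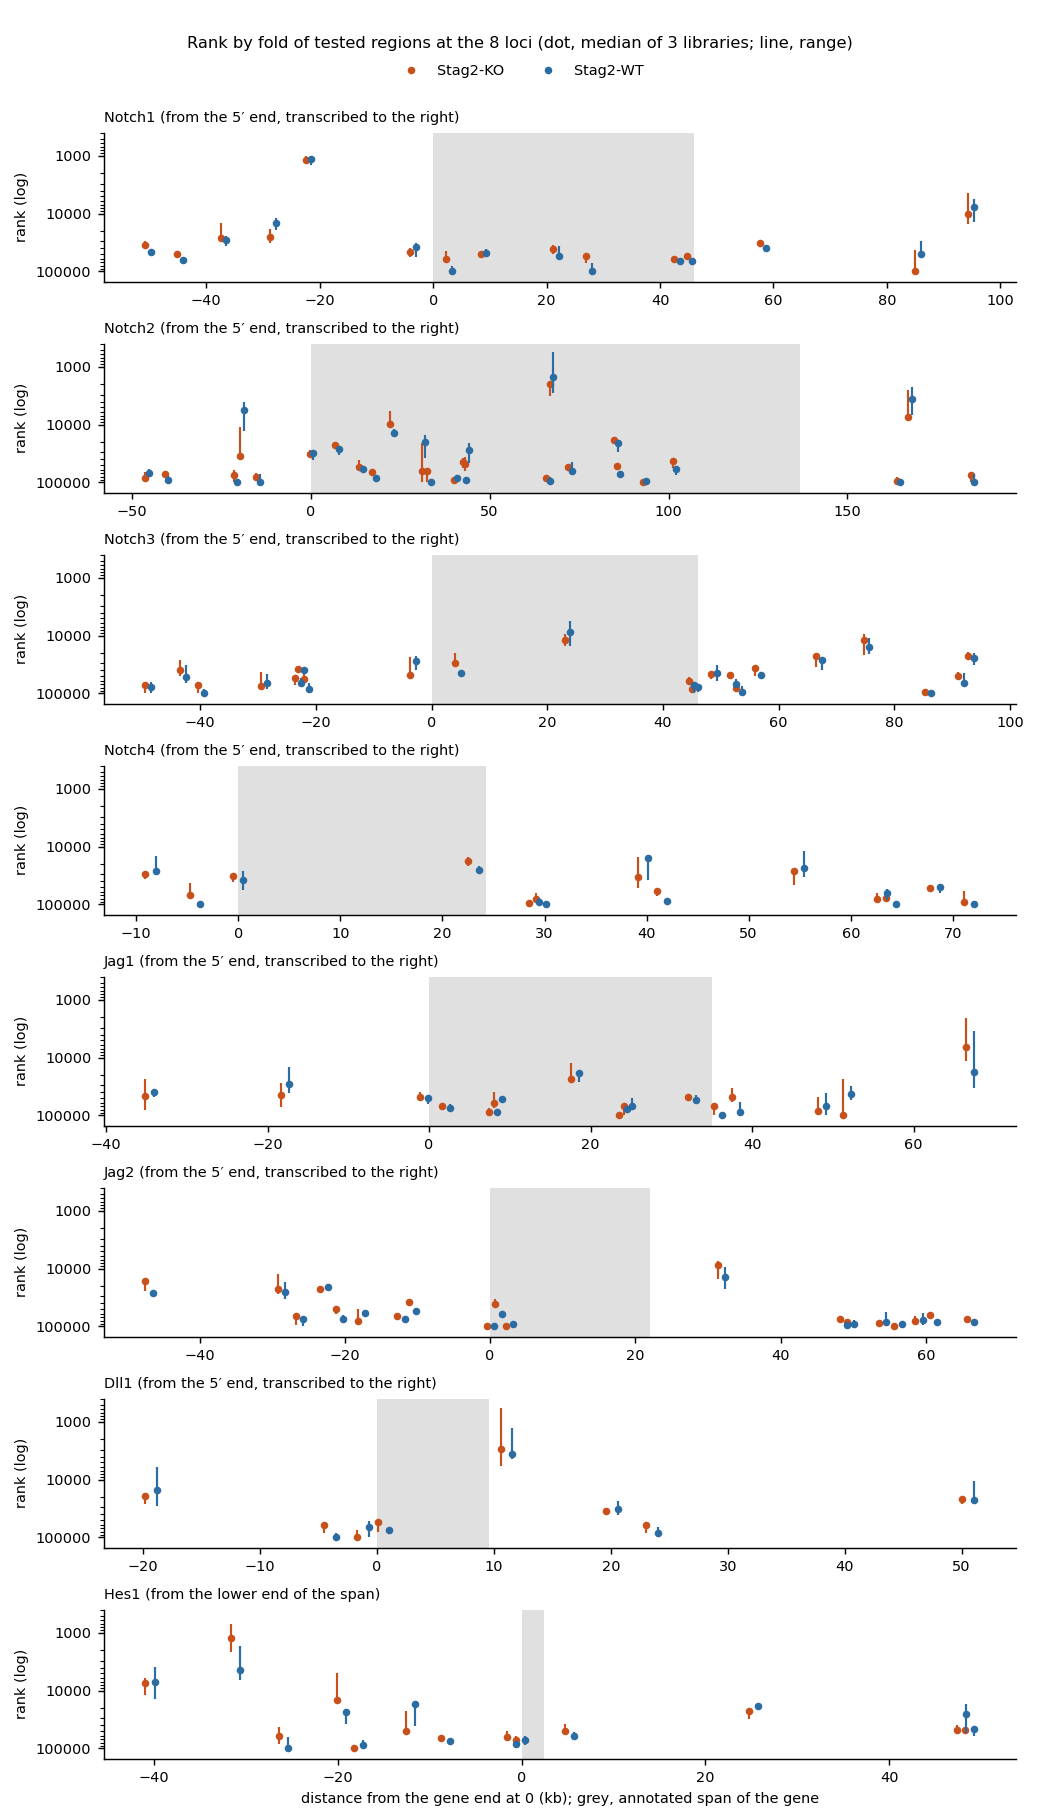
Median rank by fold (log y axis, best at the top; lines give the range of 3 libraries) of each tested region against its distance from the gene's 5′ end in kb (x axis; for Hes1 the lower end of the span), with Stag2-KO drawn slightly left and Stag2-WT slightly right of the region's centre. The best-ranked regions upstream of Notch1 and inside Notch2 are high in both genotypes, and grey marks the gene.

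Notch1, the receptor best known from epithelial differentiation (chromosome 2, 26457902 to 26503822, minus strand), had 15 tested regions. Its strongest lay 21622 bp upstream of the 5′ end (chromosome 2, 26525444 to 26526128) and ranked 1284, 1189 and 1000 in Stag2-KO and 1016, 1407 and 1134 in Stag2-WT. The authors' folds there were 32.2, 40.6 and 29.9 in Stag2-KO and 25.6, 38.5 and 29.4 in Stag2-WT. The genotypes overlapped, with a gain of 0.03 ± 0.74 (SE, n = 3 per group). The 5′ end of Notch1 itself had only weak intervals, at ranks 138719, 119820 and 144446 in Stag2-KO and 125321, 151931 and 121439 in Stag2-WT. All these ranks by fold lie beyond the best 100000, so this start was not tested in the comparison by fold. By p its best intervals ranked 66487, 62126 and 95176 in Stag2-KO and 82430, 88240 and 74294 in Stag2-WT. The region at the 3′ end ranked 51917, 54829 and 58590 in Stag2-KO and 57950, 76755 and 67188 in Stag2-WT, with a gain of 0.28 ± 0.23. Inside the gene the best region (26481847 to 26482565) ranked 50146, 41211 and 35447 in Stag2-KO and 53691, 56544 and 36093 in Stag2-WT, again with overlap.

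An internal region 2626 bp from the Notch1 start (26500851 to 26501196) had the smallest p of this locus. It ranked 43805, 61077 and 72949 in Stag2-KO and absent, 79345 and 99742 in Stag2-WT. The ranks did not overlap, and the gain of 0.67 ± 0.23 did not pass (limma, unadjusted p = 0.0133, adjusted p = 0.274). In the other direction, a region inside the neighbouring gene Sec16a (26418000 to 26418573) was absent in Stag2-KO replicates 1 and 2 and ranked 42180 in replicate 3, against 49731, 52321 and 29243 in Stag2-WT. Stag2-KO replicate 3 there lay within the Stag2-WT range, and the gain was −0.82 ± 0.38, or 0.66 with each library's share of gene-end intervals as a covariate.

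Notch2, the largest of the 8 genes (chromosome 3, 98013538 to 98150367, plus strand), had 25 tested regions, 16 of them internal. The region at its 5′ end, whose sequence is shown above, ranked 27132, 32379 and 32498 in Stag2-KO and 28846, 41453 and 31063 in Stag2-WT. The genotypes overlapped, and the gain was 0.13 ± 0.31. A region 67084 bp inside the gene (98080622 to 98081041) ranked 1980, 3121 and 1743 in Stag2-KO and 539, 2777 and 1510 in Stag2-WT. It was the strongest internal region of the 8 loci, with overlapping ranks and a gain of −0.75 ± 0.80. Past the 3′ end, 16625 bp from Adam30, a region (98180794 to 98181295) ranked 7437, 2544 and 7958 in Stag2-KO and 3537, 2244 and 6910 in Stag2-WT.

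The smallest p of all 129 regions belonged to an internal Notch2 region 42842 bp from the 5′ end (98056380 to 98056735). It ranked 37288, 44012 and 56626 in Stag2-KO and 91824, 91586 and 79596 in Stag2-WT. All Stag2-KO ranks were better, and the gain of 0.95 ± 0.24 did not pass (limma, unadjusted p = 0.00226, adjusted p = 0.255). It passed only without Stag2-KO replicate 3 (gain 1.11, limma adjusted p = 0.0444, against 0.130 to 0.875 in the other alternatives), where 2413 regions of the genome were called. With windows of fixed width around summits in place of intervals it merged with its neighbour (98056278 to 98057823) and had a gain of −0.39.

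The lowest gain also lay at Notch2, 18931 bp upstream of the 5′ end (97993973 to 97994607). This region ranked 38666, 35358 and 10951 in Stag2-KO and 5616, 13084 and 4011 in Stag2-WT. Stag2-KO replicate 3 lay within the Stag2-WT range while replicates 1 and 2 lay outside it. The gain was −1.89 ± 0.60 (limma, unadjusted p = 0.00994, adjusted p = 0.271).

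Notch3, a receptor best known from vascular smooth muscle (chromosome 17, 32120820 to 32166896, minus strand), had 21 tested regions. Within 500 bp of its 5′ end the lists held a single interval, of rank 142287 in Stag2-KO replicate 2. The region at the 3′ end was absent in Stag2-KO replicate 1 and ranked 85544 and 63917 in replicates 2 and 3, against 94783, 75810 and 76205 in Stag2-WT. Its gain was 0.00 ± 0.20. The strongest region inside Notch3 (32143044 to 32143696, 22224 bp from the nearest end of the gene) ranked 14956, 9207 and 11867 in Stag2-KO and 15124, 5494 and 8714 in Stag2-WT, while no interval of the best 100000 lay at the start. The strongest distal region (32091114 to 32092233) ranked 11962, 22040 and 9208 in Stag2-KO and 10956, 20684 and 15440 in Stag2-WT. Both had overlapping genotypes, with gains of −0.39 ± 0.49 and 0.18 ± 0.46.

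Upstream of Notch3 the region with the smallest p (32188305 to 32188701) lay inside Ephx3, which encodes an epoxide hydrolase. Its ranks were 42054, 65474 and 55319 in Stag2-KO and 85394, 86872 and 65951 in Stag2-WT, without overlap, and the gain was 0.56 ± 0.24 (limma, unadjusted p = 0.0431, adjusted p = 0.328). A region 2922 bp upstream of Notch3 (32169818 to 32170396) ranked 48673, 52105 and 23315 in Stag2-KO and 22563, 40088 and 27468 in Stag2-WT, with a gain of −0.42 ± 0.40, or 1.00 with that covariate. As at the upstream Notch2 site, replicate 3 alone of the Stag2-KO libraries fell among the Stag2-WT ranks.

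Notch4, the receptor best known from endothelium (chromosome 17, 34564286 to 34588543, plus strand), lies in a gene-dense stretch with 9 other protein-coding genes within 50 kb, so position does not assign its 11 tested distal regions to Notch4. Its 5′ end region ranked 31885, 28731 and 41408 in Stag2-KO and 55646, 26659 and 38040 in Stag2-WT, with a gain of 0.19 ± 0.35. The internal region (34586696 to 34587936, 607 bp from the 3′ end) ranked 15190, 17407 and 21569 in Stag2-KO and 27456, 25631 and 21243 in Stag2-WT. Both pairs of ranges overlapped, the internal one by a single library of each genotype.

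A region 4094 bp upstream of Notch4 (34559937 to 34560192) ranked 67638, 41771 and 70397 in Stag2-KO. In Stag2-WT it was not among the best 100000 in replicates 1 and 2 and ranked 96391 in replicate 3. The ranks did not overlap, and the gain of 0.76 ± 0.22 did not pass (limma, unadjusted p = 0.00577, adjusted p = 0.264). A stronger region 8301 bp upstream (34555385 to 34555985) had the opposite order, with 36832, 30312 and 30249 in Stag2-KO and 27586, 14359 and 26149 in Stag2-WT, and a gain of −0.57 ± 0.36.

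**Figure D3:**
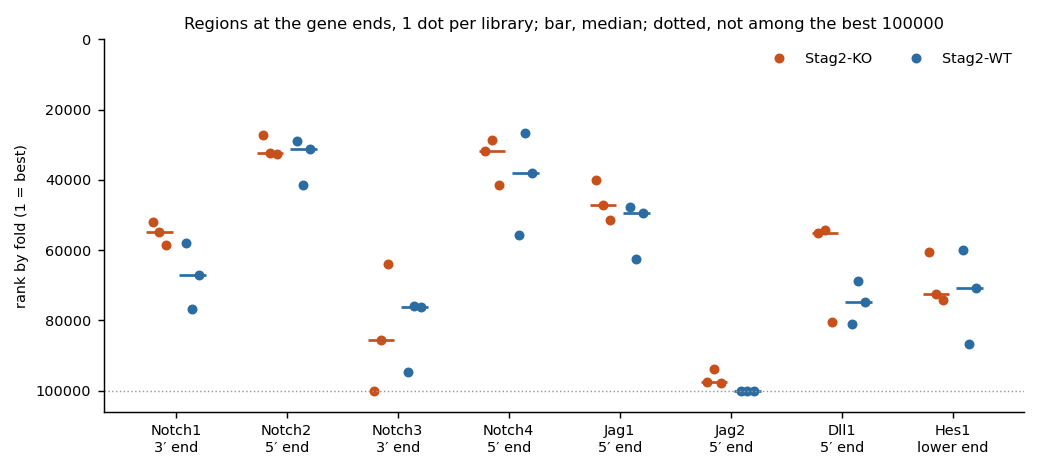
Rank by fold (y axis, best at the top) of the tested region at a gene end of each of the 8 genes, 1 dot per library and a bar for the median, Stag2-KO left of Stag2-WT. Notch2 and Notch4 rank best, Jag2 sits at the limit of the lists, and only at Jag2, where all Stag2-WT dots are at the fixed absent rank, do the genotypes not overlap.

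Jag1, the Jagged ligand altered in human Alagille syndrome (chromosome 2, 137081451 to 137116520, minus strand), had 15 tested regions. At its 5′ end the ranks were 39915, 47248 and 51285 in Stag2-KO and 47719, 62593 and 49443 in Stag2-WT, overlapping, with a gain of 0.20 ± 0.27. By p this region held ranks 9830, 6043 and 18946 in Stag2-KO and 16776, 14674 and 14998 in Stag2-WT. The best internal region (137097931 to 137099067) ranked 23470, 24780 and 12140 in Stag2-KO and 17058, 26309 and 18472 in Stag2-WT, with a gain of 0.08 ± 0.41. Beyond the 3′ end, inside Slx4ip, a region (137049321 to 137049749) varied widely within each genotype, with 6570, 2080 and 11366 in Stag2-KO and 17780, 3500 and 32989 in Stag2-WT. Its gain was 1.24 ± 0.85, and −1.72 with the covariate of gene-end shares.

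At this locus a region past the 3′ end and also inside Slx4ip (137078240 to 137078703) ranked 47666, 33914 and 59360 in Stag2-KO and 87495, 58696 and 88596 in Stag2-WT, overlapping by a single library of each genotype, with a gain of 0.75 ± 0.29 (limma, adjusted p = 0.297). An internal region 10936 bp from the 3′ end (137092387 to 137092702) was below the best 100000 in all 3 Stag2-KO libraries and ranked 78844, 85357 and 74998 in Stag2-WT. It met the requirement of 3 libraries through Stag2-WT alone, which fixed the sign of its gain (−0.33), so no test is given for it.

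Jag2, the second Jagged ligand (chromosome 12, 112907803 to 112929812, minus strand), had 19 tested regions, 13 with a positive gain. Its 5′ end region ranked 97673, 93858 and 97849 in Stag2-KO and was outside the best 100000 in all 3 Stag2-WT libraries, a gain of 0.05 whose sign was fixed because Stag2-KO libraries alone brought the region past the filter. A second region at this end (112929982 to 112930407) had an interval among the best 100000 in Stag2-WT replicate 3 alone, at rank 99515, and was not tested. Next to it inside the gene (112928053 to 112929275), a wider region ranked 34147, 40238 and 44134 in Stag2-KO and 55634, 60079 and 61781 in Stag2-WT. These ranks did not overlap, and the gain of 0.59 ± 0.26 did not pass (limma, unadjusted p = 0.0485, adjusted p = 0.336). The smallest p of the locus, 48315 bp downstream of the 5′ end (112880817 to 112881497), came with ranks of 76373, 75660 and 67281 in Stag2-KO and 92436, absent and 94561 in Stag2-WT and a gain of 0.39 ± 0.15 (limma, unadjusted p = 0.0218, adjusted p = 0.289). At Jag2, 7 of the 19 regions (36.8%) had every Stag2-KO rank better than every Stag2-WT rank, and none had the reverse. The background was 11.4% and 8.17% over all regions, and 11.9% and 7.61% near genes. Jag2 had the highest number of the 8 loci. Elsewhere it ran from 0, at Jag1 (15 regions) and Dll1 (8), to 5 at Notch2 (25). With 4 other protein-coding genes within 50 kb, position does not assign the distal regions to Jag2. The 5′ end region, with its fixed Stag2-WT ranks, is among the 7. The strongest region, 9385 bp past the 3′ end (112897440 to 112898418), ranked 8529, 7490 and 14852 in Stag2-KO and 9320, 13905 and 22572 in Stag2-WT, with overlap. Of negative gains the smallest p was at 112875603 to 112875996, near Gpr132, with 82688, 98532 and 88183 in Stag2-KO and 56557, 95749 and 84629 in Stag2-WT, a gain of −0.22 ± 0.20.

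Dll1, a ligand of the Delta family (chromosome 17, 15367354 to 15376932, minus strand), is short and had 8 tested regions, none of them internal. The merged region over its starts (15375619 to 15377140) ranked 55169, 54240 and 80342 in Stag2-KO and 81098, 68696 and 74870 in Stag2-WT, overlapping, with a gain of 0.26 ± 0.23, or −0.39 with the covariate of gene-end shares. When intervals within 500 bp of the outer end alone were taken, the ranks were 92974, 94095 and 117707 in Stag2-KO and 81098, 68696 and 74870 in Stag2-WT, with a gain of −0.36 ± 0.16 (limma over gene ends, unadjusted p = 0.0504, adjusted p = 0.383), rank 117707 being entered as absent. In Stag2-WT a single interval ran from the inner start into that window and gave both sets of ranks. In Stag2-KO the inner start had an interval of its own that ended short of the window, so the 2 gains set unlike intervals side by side, and neither passed. A region 1232 bp past the 3′ end (15365602 to 15366122) was far stronger, at 5780, 569 and 2924 in Stag2-KO and 3524, 1263 and 4432 in Stag2-WT, with overlapping genotypes and a gain of 0.35 ± 0.92. Upstream, a region at 15380554 to 15381302 ranked 61602, 61606 and 84433 in Stag2-KO and absent, 99767 and 84346 in Stag2-WT, overlapping by a single library of each genotype, with a gain of 0.46 ± 0.18 (limma, unadjusted p = 0.0276, adjusted p = 0.299). A region 1042 bp upstream (15377974 to 15378269) was absent in Stag2-KO replicates 1 and 2 and in Stag2-WT replicate 2 and had a gain of −0.39 ± 0.24.

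Hes1, the target and a bHLH repressor (chromosome 16, 30065357 to 30067796), had 13 tested regions, 12 of them distal, and no other protein-coding gene within 50 kb. The region at the lower end of its span ranked 60535, 72598 and 74092 in Stag2-KO and 59925, 86830 and 70888 in Stag2-WT, with a gain of 0.06 ± 0.21. By p the same region ranked 16180, 16107 and 24601 in Stag2-KO and 17073, 21918 and 20554 in Stag2-WT. The strongest region of the locus, 30815 bp below the span (30033920 to 30034542), ranked 1217, 710 and 2122 in Stag2-KO and 6532, 1688 and 4381 in Stag2-WT. Stag2-WT replicate 2 fell between the Stag2-KO libraries, and the gain of 1.57 ± 0.76 did not pass (limma, unadjusted p = 0.0650, adjusted p = 0.359). The folds there were 32.4, 42.7 and 27.4 in Stag2-KO and 19.1, 37.8 and 24.5 in Stag2-WT.

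A second region on that side, 19342 bp below the Hes1 span (30045496 to 30046015), ranked 14678, 4922 and 17042 in Stag2-KO and 37401, 20939 and 23463 in Stag2-WT. The ranks did not overlap, and the gain of 1.30 ± 0.51 did not pass (limma, unadjusted p = 0.0285, adjusted p = 0.301). Between it and the gene, a weak region (30047349 to 30047810) was below the best 100000 in all 3 Stag2-KO libraries and ranked 72737, 89599 and 86517 in Stag2-WT, with a gain of −0.28. It too was tested through the Stag2-WT libraries alone, so the sign was fixed by the filter and no test is given.

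**Figure D4:**
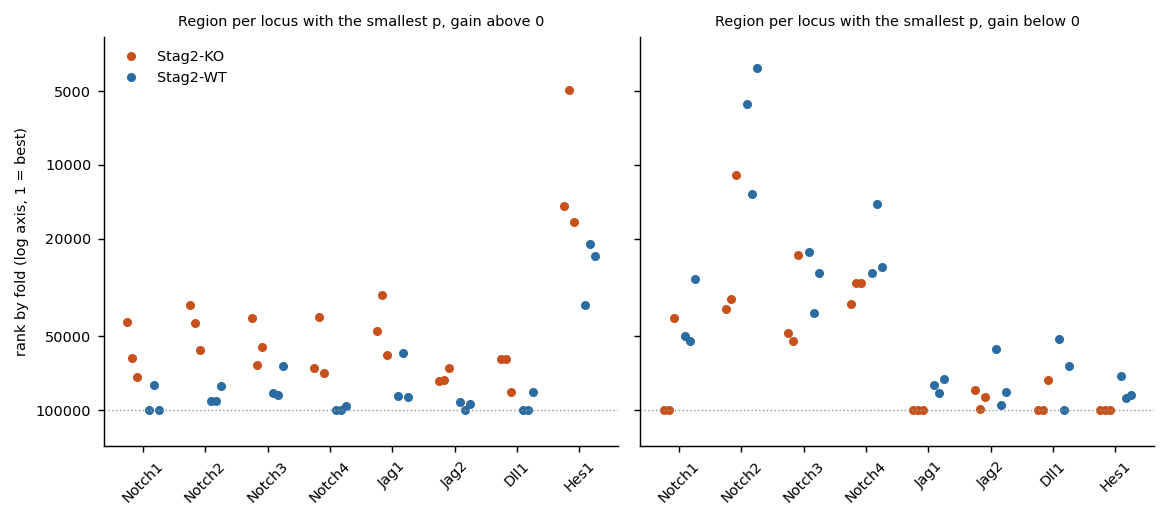
Rank by fold (log y axis, best at the top) in each library of the region with the smallest p per locus, for gains above 0 (left panel) and below 0 (right panel), Stag2-KO left of Stag2-WT. The regions were picked by p, which favours separation, and none passed adjustment. In the left panel the genotypes separate at Notch1, Notch2, Notch3, Notch4, Jag2 and Hes1. In the right panel they separate at Notch4, Jag1 and Hes1, with the direction at Jag1 and Hes1 fixed by the filter. Stag2-KO replicate 3 there lies within the range of the Stag2-WT ranks at Notch1, Notch2, Notch3, Jag2 and Dll1. It is joined at Jag2 by replicate 1. At Dll1, Stag2-KO replicates 1 and 2 share the absent rank of Stag2-WT replicate 2, so all Stag2-KO libraries lie in that range. Dots on the dotted line are not among the best 100000.

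Gene ends were also compared with all annotated gene ends, by the best interval within 500 bp. None of the 8 tested member ends was called (limma, 0.171% of 21609 ends called, 37 in all), and none had an unadjusted p below 0.05, against a background of 13.1% of ends in either direction. The median gain of the 8 ends was 0.09 and that of all tested ends 0.19, but the order depended on the setting. With windows of 1000 bp the medians were 0.24 over 10 member ends and 0.17 over all, and by −log10 p they were 0.43 over 9 member ends and 0.24 over all. The share of gene-end intervals among the best 100000 was 14.1%, 14.2% and 13.6% in Stag2-KO and 13.3%, 13.5% and 13.3% in Stag2-WT.

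The number of intervals per locus was counted among the best 100000 of each library. Over the 8 loci there were 137, 140 and 131 intervals in Stag2-KO and 122, 115 and 129 in Stag2-WT, or 136 ± 4.58 and 122 ± 7.0 (SD, n = 3 each). Every Stag2-KO count was higher, by 14 on average (exact permutation test, two-sided p = 0.1, the smallest that 3 against 3 allow). Among the best 50000 the counts were 61, 55 and 60 in Stag2-KO and 57, 48 and 55 in Stag2-WT, which overlap (p = 0.3 by the exact test). Over all 19506 protein-coding loci the mean per locus was 10.7 in Stag2-KO and 10.5 in Stag2-WT, a ratio of 1.02, and that of the 8 loci was 1.11. Every Stag2-KO count exceeded every Stag2-WT count at 5.59% of those loci, and the reverse held at 2.46%.

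Among single loci, Notch1 had 18, 20 and 18 intervals in Stag2-KO and 16, 15 and 17 in Stag2-WT, and Notch4 had 13, 12 and 13 in Stag2-KO and 9, 10 and 10 in Stag2-WT. These were the 2 loci whose counts did not overlap. Notch2 had 29, 30 and 23 in Stag2-KO and 26, 20 and 24 in Stag2-WT. Jag1 alone had a lower mean in Stag2-KO, with 12, 14 and 14, against 14, 16 and 15 in Stag2-WT. The counts of Notch3, Jag2, Dll1 and Hes1 overlapped, with mean differences of 1.67, 2.33, 1.00 and 1.00. Among the best 50000, Notch1 had 10, 8 and 9 in Stag2-KO and 9, 6 and 10 in Stag2-WT, which overlap. Notch4 had 5, 5 and 6 in each genotype. At that list length the counts of Jag2 alone did not overlap, with 7, 6 and 6 in Stag2-KO and 4, 4 and 4 in Stag2-WT.

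**Figure D5:**
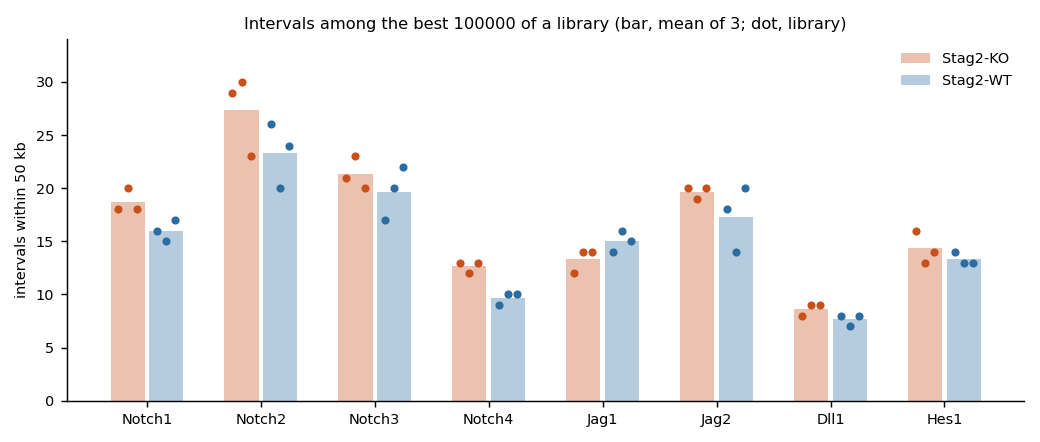
Number of intervals among the best 100000 of a library that overlap each gene widened by 50 kb (y axis), with bars for the mean of 3 libraries and 1 dot per library, Stag2-KO left of Stag2-WT. Notch1 and Notch4 have every Stag2-KO dot above every Stag2-WT dot, and Jag1 has the lower bar in Stag2-KO.

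Of the other genes of the pathway, a list of 46 covering further ligands, Hes and Hey targets, nuclear cofactors, proteases, glycosyltransferases and trafficking proteins, 41 had a tested gene end, with 47 ends in all. None was called higher or lower. The gain was positive at 28 and negative at 19 ends, with a median of 0.19, the same as that of all gene ends, and 3 ends (6.38%, background 13.1%) had an unadjusted p below 0.05, 2 of them with a positive gain. Poglut1, which encodes the O-glucosyltransferase of Notch EGF repeats, had the smallest p of the positive gains. Its 5′ end ranked 6168, 4155 and 17391 in Stag2-KO and 22329, 13804 and 27357 in Stag2-WT, with overlap and a gain of 1.41 ± 0.55 (limma, adjusted p = 0.360). Psen2, which encodes a catalytic subunit of gamma-secretase, had the smallest p of the negative gains. Its 5′ end was absent in Stag2-KO replicate 1 and ranked 66525 and 24797 in replicates 2 and 3, against 15778, 27738 and 26489 in Stag2-WT, a gain of −1.28 ± 0.46 (limma, adjusted p = 0.346). Rbpj, the DNA-binding partner of cleaved Notch, had no interval within 500 bp of either annotated end in any whole list.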

How the data were processed

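ATAC-seq libraries of 3 Stag2-KO and 3 Stag2-WT samples were used, each with its own peak list. Per the submitters' processing notes, coordinates are in mm10 and DiffBind was run, whose output was not used here. The aligner and peak caller were not given in the sources used here. For each list, the authors' caller wrote into the deposited files each peak's ratio to its local background (fold) and its p and q as −log10. The deposited display score and summit offset were not tested, except that the offset centred the fixed windows of an alternative. Fold and p depend on depth, so they served only to rank, describe or filter peaks within a list.

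Peaks sharing an interval were reduced to 1 with the best fold and p. Ranks were compared as −log2 rank with limma 3.58.1 in R 4.3.3 (moderated variances with a trend, Benjamini-Hochberg adjustment over all regions or gene ends) and single values with two-sided exact permutation tests. Other steps used Python 3.11.15, NumPy 2.4.6, pandas 2.3.3, SciPy 1.17.1 and matplotlib 3.10.9. The limma step was tested on simulated peak lists, where it missed part of the changed regions, and more of them when replicates varied more, so a region that was not called is not shown to be unchanged. Depth was read from the background coverage that fold and p imply in 4000 peaks per library. Counting error of single peaks is not given by the lists. Gene spans were those of GRCm38.p6 without exons, so UTRs were not told apart, and strand came from the RefSeq promoter table.

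The members, gene lists and tests were chosen with earlier results of these data known. Regions named are those at gene ends, the best internal and distal region of each gene by mean rank, and the smallest p in each direction. For other pathway genes the smallest p in each direction is named. Alternatives were ranking by −log10 p, other list lengths, linear ranks, a −log10 q of at least 2, each library's gene-end share as covariate, a replicate block, fixed windows at summits, other peak requirements, other windows and flanks, and leaving out each library. Replicate numbers come from the sample titles, which name no pairs. Same-numbered libraries deviated together from their group means for replicates 2 and 3 (r of 0.557 and 0.401 over 100565 regions). For replicate 1 they hardly did (r of 0.105). The block fit treated all 3 numbers as pairs, which is an assumption.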

Additional observations from a re-analysis of the deposited data

How the results depend on the processing

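The count of 0 called member regions and 0 called member gene ends held in the alternatives run, except that 1 member region, inside Notch2, was called without KO replicate 3 (0 to 1 over the fits that leave out 1 library). The number of called regions in the genome, 21, depended on the settings: 0 once each library's gene-end share was a covariate, 32 with the replicate block, 10 with a peak in at least 2 libraries, 0 with a peak in all 6, 52 when ranked by −log10 p, 4 with the best 50000 intervals, and 2 to 2413 without single libraries, with 2413 reached without KO replicate 3. Called gene ends, 37, became 0 with the covariate, 25 with the replicate block, 25 with windows of 1000 bp, 56 by −log10 p, 17 with the best 50000 and 0 (without KO replicate 1) to 805 (without KO replicate 3) without single libraries. The replicate block called no member region and no member end. The difference of 14 intervals over the 8 loci stayed positive in every alternative run, from 5.33 with the best 50000 to 43 with whole lists. Whole lists differ in length, with 260462 distinct intervals in Stag2-KO replicate 1 and 149153 to 177320 in the others. Their counts were 324, 226 and 250 in Stag2-KO and 215, 242 and 214 in Stag2-WT, which overlap (exact permutation test, two-sided p = 0.2). Without single libraries the difference was 10.5 to 17.5, where the smallest possible exact p is 0.2 in the 10 splits of 2 against 3.

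Over 517 refits of the 37 named regions the sign differed in 35, and in 5 of these both gains were larger than their SE. Where the gene-end share was a covariate, these were 0.66 at Notch1 26418000, 1.00 at Notch3 32169818, −1.72 at Jag1 137049321 and −0.39 at Dll1 15375619. With fixed windows at summits the Notch2 region at 98056380, merged with its neighbour, had −0.39. The cause of the covariate's effect was not tested. A −log10 q of at least 2 changed no value, because all of the best 100000 intervals lie above it. Depth limits which weak intervals were listed, so a missing interval is not closed chromatin.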
